A study of Mus musculus with 10 samples.

Results

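Of a list of 45 mitosis, DNA replication and nucleotide synthesis genes, 43 were measured among the 19659 genes tested in mouse fat. Ccnb1 and Pcna were not analysed here. Each gene was read by its probe set with the highest mean among those valued on all 10 arrays; of the 43, Top2a alone had more than 1. The tissue was inguinal-femoral subcutaneous white fat from untreated F2 females aged 14 weeks on a chow diet, and each array held RNA of a separate animal. FF mice were homozygous for the Fat-line allele at the obesity locus Fob3a, and VV mice for the allele of the V line, a congenic line bred from 1 recombinant animal within the Fob3a region and backcrossed to the Fat line, whose allele the sample labels call the lean-line one; there were 5 mice in each group. The V-line segment holds other genes besides the one named in the title of the series, DEPTOR, so the groups differ in a stretch of chromosome and not in 1 gene. All levels are log2 intensities, on which 1 unit is a 2-fold change, and every difference is FF minus VV.

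Cells that divide switch on their genes in waves. Before and during S phase they make the helicase and clamp proteins that copy DNA and the enzymes that supply deoxynucleotides, and the transcription factors E2F act on many of those genes. In G2 and mitosis they make cyclins, kinases, kinetochore proteins and motors that build the spindle and part the chromosomes, and many of those genes carry a CHR element together with CCAAT boxes, through which the DREAM complex represses them in resting cells and B-Myb and FoxM1 act in cycling ones. Mature adipocytes do not divide; the dividing cells of fat are mostly progenitors, endothelial cells and leukocytes.

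The promoters of the set were searched for these elements, and 5 are shown because they cover genes of both waves. RefSeq promoters on GRCm38.p6, from 250 bases before to 50 bases after each start, were found for 38 of the 43 genes. The motifs searched on both strands were TTTGAA for CHR, CCAAT for the CCAAT box, and TTTGGCGC, TTTCCCGC, TTTCGCGC or TTTGCCGC for E2F; no motif contains another, and a match on the opposite strand reads as its reverse complement. Each line gives the 120 bases before the start, 5′ to 3′ on the gene's strand, with matches in capitals. These 5 genes were chosen after their values were seen.
Top2a, chr11:99024190-99024309, minus strand: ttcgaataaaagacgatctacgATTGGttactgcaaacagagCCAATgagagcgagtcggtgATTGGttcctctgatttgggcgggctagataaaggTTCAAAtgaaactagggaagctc
Kif11, chr19:37376262-37376381, plus strand: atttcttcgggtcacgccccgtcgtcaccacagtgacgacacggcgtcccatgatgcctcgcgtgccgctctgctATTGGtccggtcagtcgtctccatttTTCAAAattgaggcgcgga
Ube2c, chr2:164769809-164769928, plus strand: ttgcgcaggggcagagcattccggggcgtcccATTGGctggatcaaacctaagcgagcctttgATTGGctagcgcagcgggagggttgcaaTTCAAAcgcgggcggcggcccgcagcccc
Cdk1, chr10:69352913-69353032, minus strand: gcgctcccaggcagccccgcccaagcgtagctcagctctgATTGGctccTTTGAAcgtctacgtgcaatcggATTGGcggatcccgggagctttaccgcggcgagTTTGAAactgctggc
Mcm6, chr1:128359706-128359825, minus strand: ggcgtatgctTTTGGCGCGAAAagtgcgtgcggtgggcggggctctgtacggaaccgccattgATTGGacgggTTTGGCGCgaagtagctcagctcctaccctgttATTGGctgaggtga
In these stretches Top2a holds 1 CHR match and 3 CCAAT boxes, Kif11 holds 1 of each, Ube2c holds 1 CHR match and 2 CCAAT boxes, Cdk1 holds 2 of each, and Mcm6 holds no CHR match, 2 CCAAT boxes and 3 E2F matches, 2 of them overlapping. Over the whole 300 bases, 21 of 27 mitosis genes held a CHR match, or 77.8%, against 2 of 11 replication and nucleotide genes, or 18.2%, and 20.2% of the 27025 genes of the promoter table. An E2F match lay in 1 of the 27 and 5 of the 11, or 3.70% and 45.5%, against 2.60% of all genes. CCAAT boxes lay in 21 of 27 and 8 of 11, against 41.1% of all genes. A gene with several listed starts counted once if any of them held the motif. A match is a description of these letters and not a site of binding.

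The mitosis genes lay lower in the fat of FF mice than in that of VV mice by modest amounts, and no single one passed the test over all genes. Of the 43 genes, 40 had a negative difference, with a median of -0.21 against 0.00 over all genes, where 49.7% were negative. In limma with Benjamini-Hochberg adjustment, 0 of the 43 passed an adjusted p of 0.05. Over all genes 0.753% passed, with 0.132% lower and 0.621% higher in FF. At an unadjusted p under 0.05, 25 of the 43 were lower, or 58.1% against a background of 6.18%, and 1, Cdc45, was higher against a background of 10.2%; in either direction the background was 16.4%. A difference of at least 1.2-fold lower in FF was found for 18 of the 43, against 4.31% of all genes. Every FF mouse lay below every VV mouse for 6 genes, Tpx2, Top2a, Cenpe, Kif11, Bub1 and Ndc80, or 14.0% against 1.34% of all genes, and for 0 genes did every FF mouse lie above, against 3.36% of all genes. Of the 6, Cenpe, Bub1 and Ndc80 had means in both groups below 5.99, the 25th percentile of gene means. These genes vary together from mouse to mouse, so the counts are not independent observations. This list and those below were chosen with earlier results of these data known. Shares set against all genes are therefore descriptions and not tests. In bulk tissue, fewer dividing cells and less RNA of these genes per cell cannot be told apart.

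**Figure D1:**
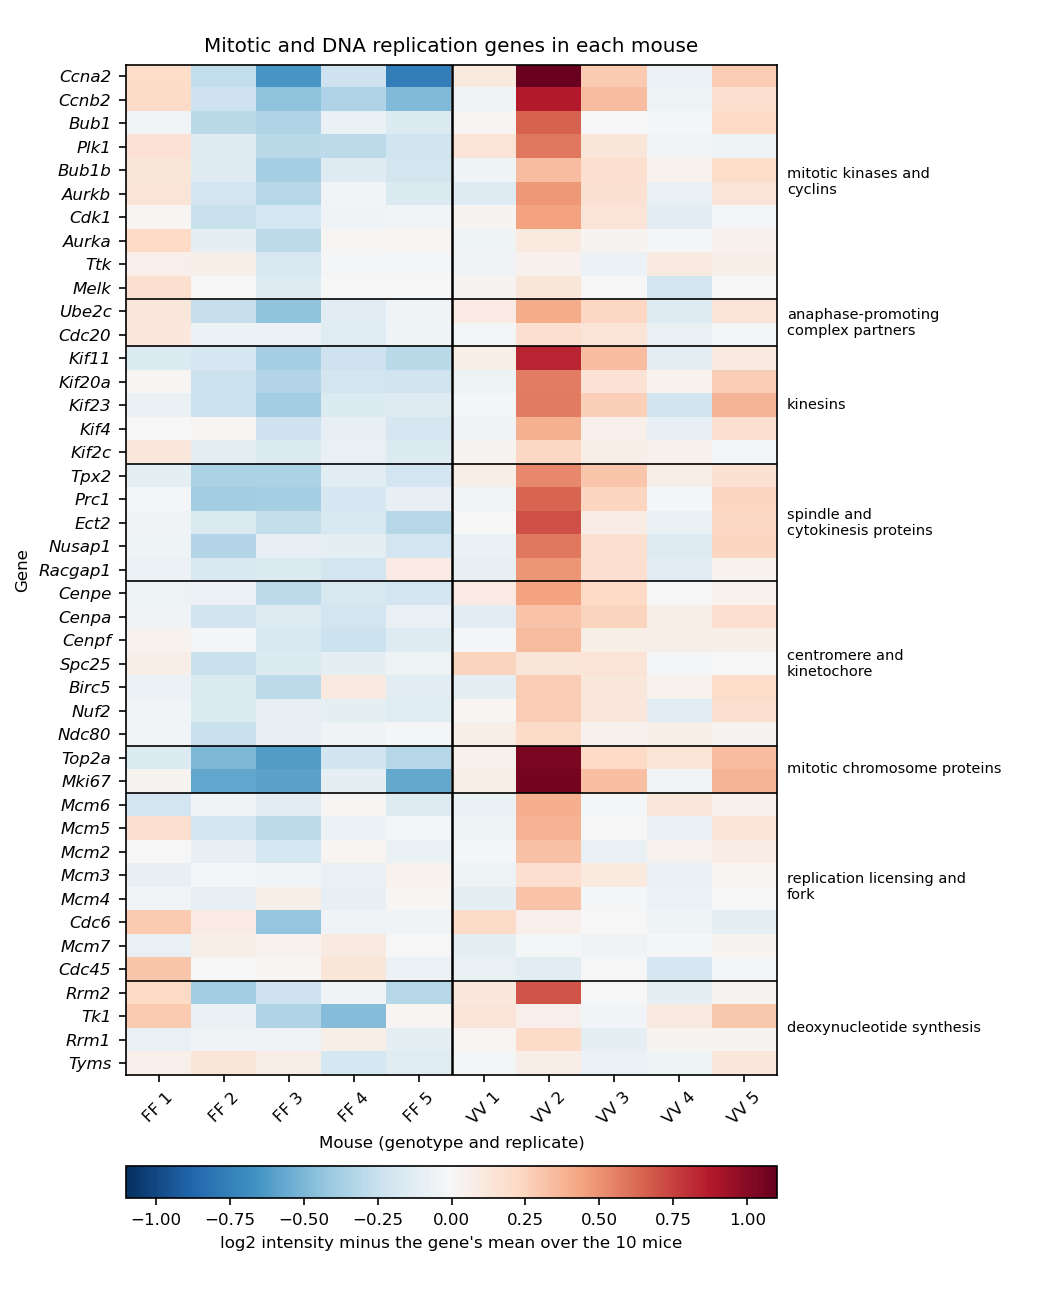
Log2 intensity of the 43 genes (rows, by role) in the 10 mice (columns), as the difference from each gene's mean over the mice; red is above and blue below that mean. The column of VV replicate 2 is the reddest, with the highest of the 10 values for 34 of the 43 genes, and FF replicate 3 is the lowest for 19.

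The difference was one of mitosis genes more than of replication genes in size, although the contrast between the 2 kinds was not tested. The 31 measured mitosis genes had a median difference of -0.29, with 30 of 31 negative. At an unadjusted p under 0.05, 24 were lower, or 77.4% against 6.18% of all genes. The 12 replication and nucleotide genes had a median of -0.08, with 10 negative. At that level 1 was lower, or 8.33%, and 1 higher, near the 6.18% and 10.2% of all genes. Without FF replicate 1 and VV replicate 1, 4 of the 12 were lower at that level, with a median of -0.09. In that fit 25 of the 31 mitosis genes were lower, with a median of -0.36, against 6.63% of all genes. The smallest limma adjusted p of the replication and nucleotide genes was 0.271, against 0.0567 among the mitosis genes.

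**Figure D2:**
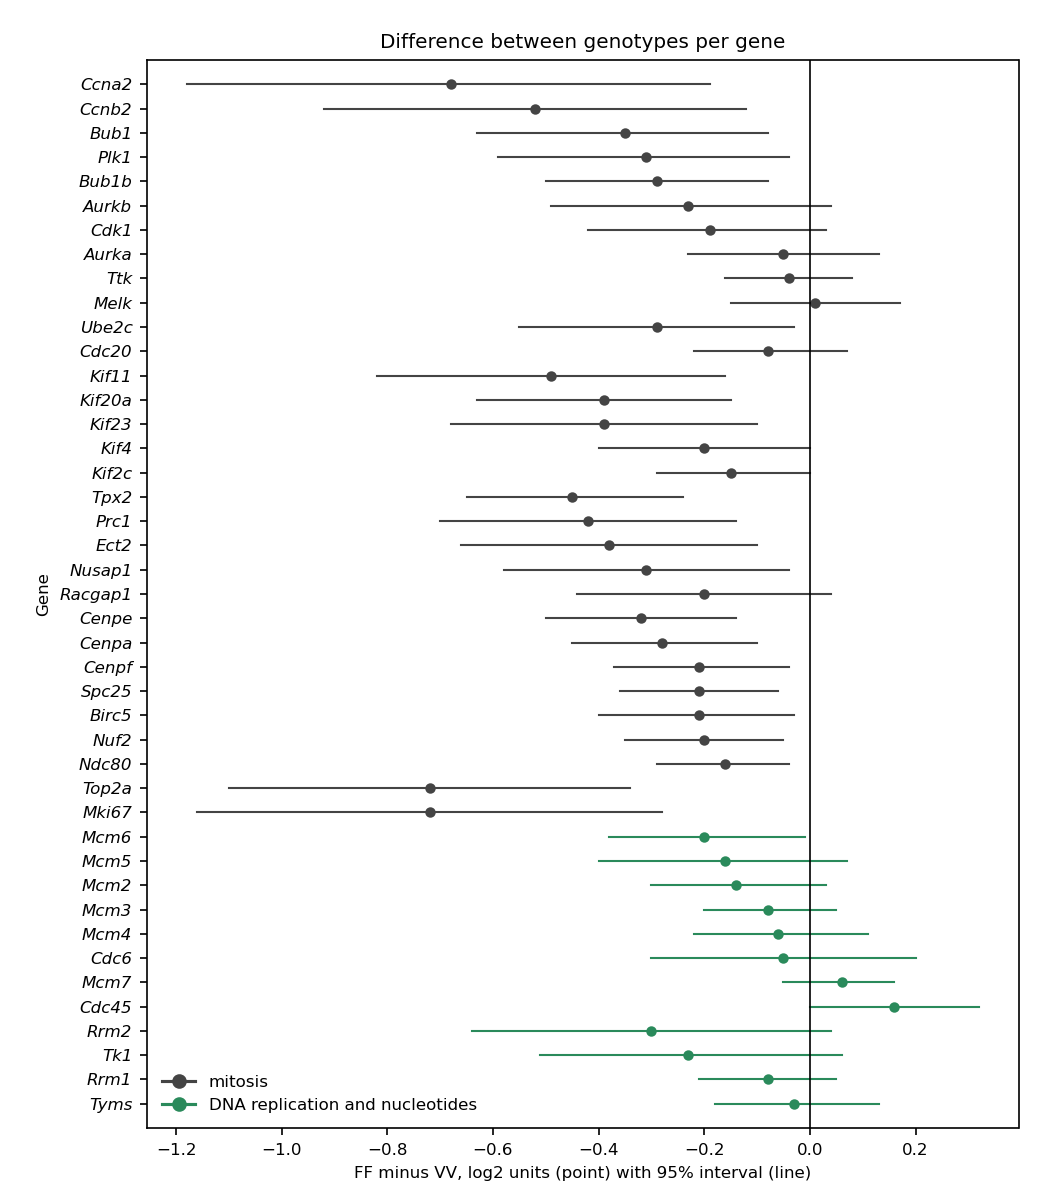
Difference FF minus VV in log2 units (point) with its 95% interval (line) for each of the 43 genes, mitosis genes in grey and replication and nucleotide genes in green. Most grey lines lie wholly left of 0, with Top2a and Mki67 farthest at -0.72, while most green lines cross it; Cdc45, at 0.16, lies farthest right.

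One VV mouse stood above the others. VV replicate 2 had the highest value of all 10 mice for 34 of the 43 genes, while 11.3% of all genes were highest there. In those 34 its median excess over the next mouse was 0.26, and the largest was 0.80, in Ccna2. FF replicate 3 was the lowest of the 10 for 19 genes, against 16.1% of all genes, and FF replicate 1 was the highest of the FF mice for 31. The mean of the centred values over the 43 genes was 0.41 in VV replicate 2, 0.12 in VV replicate 5, 0.11 in VV replicate 3, 0.01 in VV replicate 1 and -0.03 in VV replicate 4; in FF replicates 1 to 5 it was 0.04, -0.16, -0.24, -0.11 and -0.15. The groups thus overlap on this mean, with FF replicate 1 above VV replicates 1 and 4. Without VV replicate 2 the median difference was -0.15, 39 of 43 differences were negative, and 19 genes were lower at an unadjusted p under 0.05 against a background of 4.52% in that fit. Without that mouse the groups did not overlap for 6 genes, against 1.58% of all genes.

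Mitotic cyclins and kinases lay mostly lower in FF. Of 10 measured genes 9 had a negative difference, and the median was -0.26. Lower at an unadjusted p under 0.05 were 5 of the 10, against 6.18% of all genes. Ccna2, cyclin A2, which works with CDKs in S phase and G2, read 7.61, 7.14, 6.77, 7.18 and 6.65 in FF replicates 1 to 5 and 7.52, 8.50, 7.70, 7.35 and 7.69 in VV replicates 1 to 5. Its groups overlapped, since FF replicate 1 lay above VV replicates 1 and 4, and VV replicate 2 stood 0.80 above the next mouse. The difference was -0.68 ± 0.23 (SE), a 1.61-fold higher level in VV with a 95% interval from 1.14 to 2.27 (adjusted p = 0.159). Ccnb2, cyclin B2, a partner of Cdk1 at entry into mitosis, read 7.98, 7.54, 7.33, 7.43 and 7.29 in FF replicates 1 to 5 and 7.73, 8.64, 8.11, 7.72 and 7.95 in VV replicates 1 to 5. FF replicate 1 again lay within the VV range, and the difference was -0.52 ± 0.18 (SE) (adjusted p = 0.183). Without VV replicate 2 these differences were -0.50 and -0.37.

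Cdk1, the kinase that drives mitosis, read 7.49, 7.22, 7.27, 7.43 and 7.44 in FF and 7.50, 7.91, 7.61, 7.34 and 7.45 in VV. VV replicate 4 lay below 3 of the FF mice, and the difference of -0.19 ± 0.10 (SE) had a 95% interval of -0.42 to 0.03 (adjusted p = 0.379); without VV replicate 2 it was -0.11. Bub1b, a kinase-like protein of the spindle checkpoint, read 6.39, 6.12, 5.89, 6.12 and 6.06 in FF and 6.21, 6.60, 6.44, 6.30 and 6.46 in VV. Only FF replicate 1 reached into the VV range there, and the difference was -0.29 ± 0.10 (SE) (adjusted p = 0.161). Bub1, its partner kinase, had all 5 FF mice below all VV mice, with a highest FF value of 5.75, a lowest VV value of 5.76 and a difference of -0.35 ± 0.13 (SE). Plk1, the polo-like kinase, differed by -0.31 ± 0.13 (SE) and Aurkb, the kinase of the chromosomal passenger complex, by -0.23 ± 0.12 (SE). Aurka, the kinase of the spindle poles, Ttk, the checkpoint kinase also called Mps1, and Melk differed by -0.05, -0.04 and 0.01, with 95% intervals of -0.23 to 0.13, -0.16 to 0.08 and -0.15 to 0.17. These 3 intervals exclude a difference as large as that of Ccna2 or Ccnb2.

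The anaphase-promoting complex ends mitosis by marking cyclin B and securin for destruction. Ube2c, its ubiquitin-conjugating enzyme, read 7.74, 7.36, 7.17, 7.50 and 7.57 in FF and 7.70, 8.02, 7.84, 7.47 and 7.75 in VV. FF replicates 1, 4 and 5 lay above VV replicate 4, and the difference was -0.29 ± 0.12 (SE) (adjusted p = 0.248). Cdc20, its activator in mitosis, read 6.87, 6.69, 6.69, 6.62 and 6.71 in FF and 6.73, 6.93, 6.90, 6.67 and 6.73 in VV, which overlap widely, and differed by -0.08 ± 0.06 (SE) with a 95% interval of -0.22 to 0.07 (adjusted p = 0.612); it was -0.04 without VV replicate 2 and -0.05 without FF replicate 4 or VV replicate 3.

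All 5 kinesins, the motors that move along microtubules, had negative differences with an unadjusted p under 0.05, against 6.18% of all genes lower at that level, and a median of -0.39. Kif11, which pushes the spindle poles apart, read 6.41, 6.37, 6.19, 6.33 and 6.26 in FF and 6.62, 7.40, 6.90, 6.45 and 6.66 in VV. Its groups did not overlap, although VV replicate 4 lay only just above FF replicate 1, and VV replicate 2 was the highest. The difference was -0.49 ± 0.15 (SE) (adjusted p = 0.130), and -0.34 without VV replicate 2. Kif20a, a kinesin of cytokinesis, read 6.61, 6.36, 6.28, 6.40 and 6.38 in FF and 6.54, 7.16, 6.76, 6.64 and 6.87 in VV. Only FF replicate 1 lay within the VV range, and the difference was -0.39 ± 0.11 (SE) (adjusted p = 0.111). Kif23, the motor of centralspindlin, read 7.26, 7.09, 6.95, 7.18 and 7.19 in FF and 7.32, 7.90, 7.59, 7.11 and 7.70 in VV. VV replicate 4 lay below 3 FF mice, and the difference was -0.39 ± 0.13 (SE) (adjusted p = 0.165). Kif4, a motor on chromosome arms, and Kif2c, which takes microtubules apart at kinetochores, differed by -0.20 and -0.15. Both genes had means in both groups below 5.99, the 25th percentile of gene means. Without VV replicate 2, 3 of the 5 kinesins were lower at an unadjusted p under 0.05, against 4.52% of all genes.

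Spindle assembly and cytokinesis genes held the smallest p of the set. Tpx2, which activates Aurora A and starts microtubules near chromatin, read 6.28, 6.03, 6.03, 6.26 and 6.17 in FF replicates 1 to 5 and 6.44, 6.91, 6.68, 6.44 and 6.55 in VV replicates 1 to 5. Every FF mouse lay below every VV mouse. The difference was -0.45 ± 0.09 (SE), a 1.36-fold higher level in VV with a 95% interval from 1.18 to 1.57, and adjusted p = 0.0567, at rank 206 by p among 19659 genes. This gene passed the threshold in 5 alternatives of the processing, and its adjusted p ran from 0.0340 to 0.202 over the 18 in which it was tested. Prc1, which bundles the microtubules of the spindle midzone, read 5.79, 5.43, 5.45, 5.63 and 5.72 in FF and 5.78, 6.45, 6.05, 5.79 and 6.05 in VV. FF replicate 1 tied with or lay above VV replicates 1 and 4, and the difference was -0.42 ± 0.13 (SE) (adjusted p = 0.127). Ect2, the exchange factor that turns on RhoA at the cleavage furrow, read 7.19, 7.07, 6.96, 7.05 and 6.91 in FF and 7.23, 7.93, 7.31, 7.15 and 7.45 in VV. FF replicate 1 lay above VV replicate 4 and the difference was -0.38 ± 0.13 (SE) (adjusted p = 0.169), and -0.25 without VV replicate 2. Nusap1, a spindle microtubule protein, differed by -0.31 ± 0.12 (SE). Racgap1, the partner of Kif23 and the only measured gene of the set on chromosome 15, which also carries Fob3a, differed by -0.20 ± 0.11 (SE) with a 95% interval of -0.44 to 0.04.

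**Figure D3:**
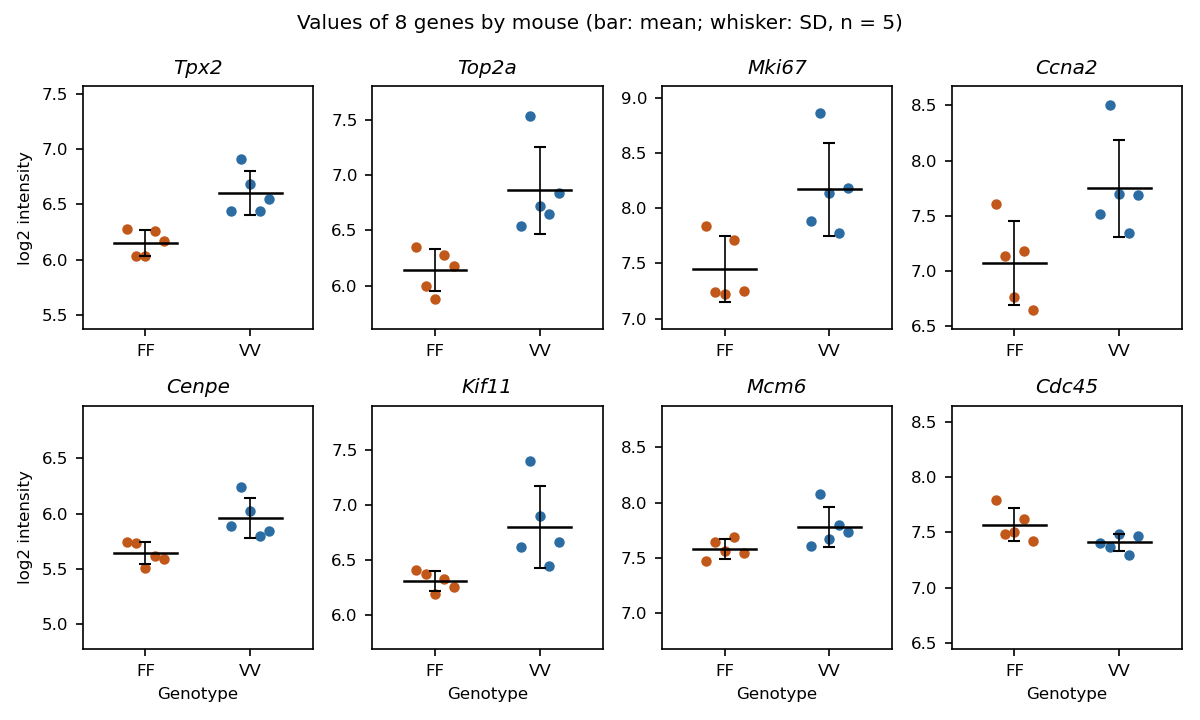
Log2 intensity of 8 genes in the 5 FF and 5 VV mice (points in replicate order from left to right), with the mean (bar) and SD (whisker, n = 5); each panel spans the same number of log2 units. The groups are separate for Tpx2, Top2a, Cenpe and Kif11, and VV replicate 2, the second blue point, is the highest of the 10 mice in all panels but Cdc45.

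Centromere and kinetochore genes lay lower in FF by small amounts: all 7 had a negative difference and an unadjusted p under 0.05, against 6.18% of all genes, with differences between -0.32 and -0.16. Cenpe, Nuf2, Ndc80 and Spc25 had means in both groups below 5.99, the 25th percentile of gene means. Cenpe, the kinetochore motor that carries chromosomes to the spindle equator, read 5.74, 5.73, 5.51, 5.62 and 5.59 in FF replicates 1 to 5 and 5.89, 6.24, 6.02, 5.80 and 5.84 in VV replicates 1 to 5. The groups did not overlap, and the difference was -0.32 ± 0.08 (SE) (adjusted p = 0.0910). Cenpa, the histone that marks centromeres, read 8.19, 8.01, 8.09, 8.02 and 8.15 in FF and 8.11, 8.54, 8.47, 8.29 and 8.41 in VV. FF replicates 1 and 5 lay above VV replicate 1, and the difference was -0.28 ± 0.08 (SE) (adjusted p = 0.115); without VV replicate 1 it was -0.34 and passed the threshold (adjusted p = 0.0449), and in the other 9 fits with 1 mouse left out it did not, among them -0.23 without VV replicate 2 (adjusted p = 0.229). Spc25 of the Ndc80 complex, which grips microtubules, read 5.68, 5.37, 5.47, 5.51 and 5.56 in FF and 5.86, 5.75, 5.77, 5.60 and 5.62 in VV. FF replicate 1 reached into the VV range, and VV replicate 1 rather than VV replicate 2 was the highest; the difference was -0.21 ± 0.07 (SE) (adjusted p = 0.161). The other 2 subunits of that complex in the set, Ndc80 and Nuf2, differed by -0.16 and -0.20, Cenpf by -0.21, and Birc5, survivin, by -0.21.

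The 2 chromosome proteins showed the largest differences of all 43. Top2a, the topoisomerase that untangles sister chromatids, read 6.35, 6.0, 5.88, 6.28 and 6.18 in FF replicates 1 to 5 and 6.54, 7.53, 6.72, 6.65 and 6.84 in VV replicates 1 to 5. No FF mouse reached the lowest VV mouse, and VV replicate 2 stood 0.69 above the next. The difference was -0.72 ± 0.17 (SE), a 1.65-fold higher level in VV with a 95% interval from 1.27 to 2.14 (adjusted p = 0.0742), and it was -0.55 without VV replicate 2. The second probe set of Top2a, with a low mean level of 4.15, differed by -0.05, so the 2 probe sets disagreed in size; their mean gave -0.38. Mki67, the Ki-67 protein that coats mitotic chromosomes and is the usual marker of cycling cells, read 7.84, 7.24, 7.22, 7.71 and 7.25 in FF replicates 1 to 5 and 7.88, 8.86, 8.14, 7.78 and 8.18 in VV replicates 1 to 5. FF replicate 1 lay above VV replicate 4, so the groups overlapped, and the difference was -0.72 ± 0.20 (SE), a 1.64-fold higher level in VV (adjusted p = 0.110).

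Replication genes differed little. The Mcm proteins form the ring helicase that is loaded on origins and unwinds DNA. Mcm6 read 7.47, 7.64, 7.56, 7.69 and 7.54 in FF and 7.61, 8.08, 7.67, 7.80 and 7.73 in VV. VV replicates 2, 4 and 5 lay above every FF mouse and VV replicates 1 and 3 did not, and the difference was -0.20 ± 0.08 (SE) (adjusted p = 0.271), and -0.12 without VV replicate 2. Mcm2 read 7.75, 7.66, 7.56, 7.77 and 7.68 in FF and 7.74, 8.07, 7.67, 7.79 and 7.83 in VV, with a difference of -0.14 ± 0.07 (SE) (adjusted p = 0.406), and -0.07 without VV replicate 2. Its VV replicate 3 lay below FF replicates 1, 4 and 5. Cdc45, which joins the Mcm ring to make the active helicase, read 7.79, 7.49, 7.50, 7.62 and 7.42 in FF and 7.40, 7.37, 7.49, 7.30 and 7.47 in VV. Here the FF mice were the higher ones, with FF replicate 1 highest, and the groups overlapped; the difference was 0.16 ± 0.07 (SE) with a 95% interval of 0.00 to 0.32 (adjusted p = 0.304), and it was 0.10 without FF replicate 1. Mcm3, Mcm4, Mcm5 and Mcm7 differed by -0.08, -0.06, -0.16 and 0.06, and Cdc6, which loads the ring, by -0.05. The median of the 8 genes was -0.07, and their adjusted p ran from 0.271 to 0.877.

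Genes of deoxynucleotide synthesis had a median of -0.15, and 0 of 4 reached an unadjusted p of 0.05, against 16.4% of all genes. Without FF replicate 1 and VV replicate 1, 2 of the 4 were lower at that level, against 6.63% of all genes. Rrm2, the subunit of ribonucleotide reductase whose level follows S phase, read 7.08, 6.48, 6.63, 6.82 and 6.55 in FF and 6.98, 7.55, 6.86, 6.76 and 6.89 in VV. FF replicate 1 was the second highest of the 10 mice and VV replicate 2 the highest; the difference was -0.30 ± 0.15 (SE) (adjusted p = 0.379), and -0.16 without VV replicate 2. Tk1, thymidine kinase, read 6.94, 6.58, 6.32, 6.17 and 6.67 in FF and 6.79, 6.71, 6.62, 6.75 and 6.95 in VV, with FF replicate 1 within 0.01 of the highest VV mouse and a difference of -0.23 ± 0.13 (SE) (adjusted p = 0.425), and -0.14 without FF replicate 4. Rrm1, the large subunit of the reductase, read 8.89, 8.93, 8.93, 9.03 and 8.86 in FF and 8.99, 9.18, 8.87, 9.00 and 9.00 in VV and differed by -0.08 ± 0.06 (SE) (adjusted p = 0.547), and by -0.04 without VV replicate 2. Tyms, thymidylate synthase, differed by -0.03 with a 95% interval of -0.18 to 0.13.

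Other genes of the cell cycle were read in the same fit. Of 129 measured genes 0 passed limma's threshold, a share near the 0.753% of all genes that passed. Of 51 further mitosis genes, 46 had a negative difference and 15 were lower at an unadjusted p under 0.05, or 29.4% against 6.18% of all genes, with a median of -0.12. Kif22, a chromosome motor, had FF values up to 6.26 and VV values from 6.35, with a difference of -0.29 ± 0.07 (SE) (adjusted p = 0.0765), and Cdc25c, a phosphatase that activates Cdk1, differed by -0.19 ± 0.05 (SE) (adjusted p = 0.0844). Of 40 further replication genes, 19 were negative and 2 were lower and 2 higher at that level, or 5.00% each against 6.18% and 10.2% of all genes, with a median of 0.00; Pold2 and Pole, subunits of replicative polymerases, differed by 0.27 and -0.17 (adjusted p = 0.160 and 0.177). Of 18 genes of G1/S control, 9 were negative and the median was 0.00. There Cdkn1c, a CDK inhibitor, differed by 0.19 ± 0.06 (SE) with all FF mice above all VV mice, and Rbl1, a relative of the retinoblastoma protein, by -0.14 (adjusted p = 0.134 and 0.297). Of 20 transcription factors and DREAM subunits, 7 were negative, with a median of 0.03. At an unadjusted p under 0.05, 0 were lower and 2 higher, against 6.18% and 10.2% of all genes. The 2 were E2f4 and Lin37, both of DREAM, which differed by 0.18 and 0.24 (limma adjusted p = 0.113 and 0.185). Other genes of DREAM went both ways. Lin9, Lin54, Tfdp1, Tfdp2 and E2f5 differed by 0.09, 0.03, 0.03, 0.03 and 0.10. Rbbp4, Rbl1 and Rbl2 differed by -0.03, -0.14 and -0.03. Foxm1 and Mybl2, which encodes B-Myb, differed by -0.16 and 0.03.

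Markers of leukocytes, too, lay lower in FF. All 10 pan-leukocyte markers had a negative difference with an unadjusted p under 0.05, against 6.18% of all genes, and the median was -0.48. Of these Ptprc, which encodes CD45, fell by 0.68 and Arhgdib by 0.43 (limma adjusted p = 0.0422 and 0.0402); without VV replicate 2 the differences were -0.61 and -0.39 and neither passed (adjusted p = 0.0935 and 0.0935). All 10 macrophage markers, 10 T and NK cell markers and 11 B cell and follicle markers were negative too, with medians of -0.28, -0.34 and -0.77. Among them Mpeg1, Adgre1, Cd4, Gzma, Ms4a1 and Fcer2a had the smallest p (adjusted p = 0.0887, 0.105, 0.050, 0.0625, 0.0875 and 0.0887, none past the threshold). The summed log2 level of the pan-leukocyte list ran from 89.6 to 93.5 in FF and from 95.1 to 100.2 in VV, that of the macrophage list from 95 to 98.6 and from 99.4 to 103.7, that of the T and NK list from 69.6 to 72.1 and from 72.6 to 74.9, and that of the B cell list from 78.8 to 90.1 and from 87.8 to 94.1. These log2 values have no true 0, so the absence of a marker cannot be read from them.

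The order of mice within a genotype was partly the same for the 2 kinds of gene. Mitosis means in VV replicates 1 to 5 were 0.01, 0.48, 0.16, -0.03 and 0.14, and leukocyte means were 0.09, 0.60, 0.18, 0.15 and 0.18. In FF replicates 2 to 5 mitosis means were -0.20, -0.28, -0.13 and -0.18, and leukocyte means were -0.32, -0.24, -0.07 and -0.13. VV replicate 2 was the highest mouse for all 10 pan-leukocyte markers, 9 of 10 macrophage markers and 27 of the 31 mitosis genes. It was the highest for 7 of 11 B cell markers, 2 of 10 T and NK cell markers and 1 of 9 progenitor markers. FF replicate 3 had the lowest mitosis mean, -0.28, and the highest progenitor mean, 0.25. FF replicate 1 had the lowest leukocyte mean of all 10 mice, -0.46, while its mitosis mean, 0.03, was the highest among the FF mice. The same mouse had a mean of 1.98 over skeletal muscle markers. FF replicate 4 had a B cell mean of 0.27, above VV replicates 1 and 3 at 0.05 and 0.23, and a mitosis mean of -0.13. VV replicate 4 had a leukocyte mean of 0.15 and a mitosis mean of -0.03. The part of leukocytes in the differences of the mitosis genes was not tested.

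**Figure D4:**
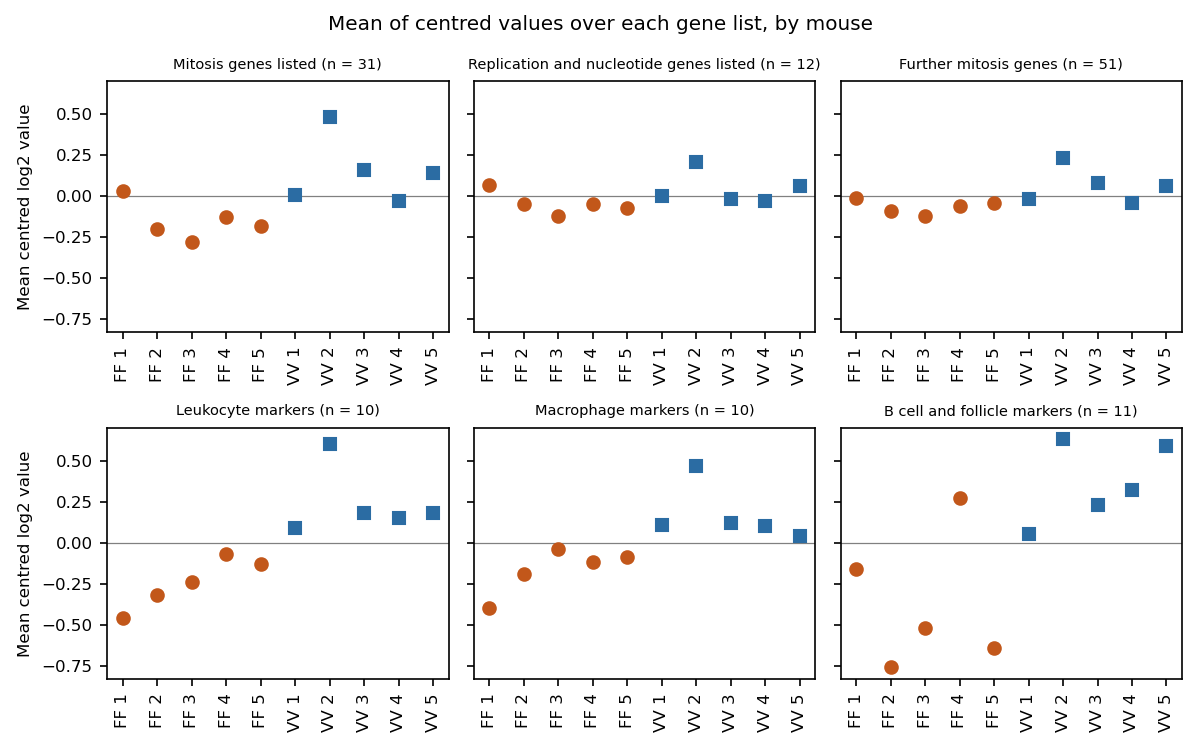
Mean centred log2 value over 6 gene lists (panels, n genes each) in FF (orange circles) and VV (blue squares) mice. VV replicate 2 is the highest mouse in all 6 panels; FF replicate 1 is the highest FF mouse for the listed mitosis genes (0.03) and the lowest for leukocyte markers (-0.46).

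Across the series, array medians ran from 7.15 to 7.21, lower in FF than in VV, and 148 genes passed the threshold, 122 higher and 26 lower in FF. All 9 measured adipocyte markers lay at or above 12.02 on every array, and their differences had a median of 0.05, with 5 positive and 4 negative. Lipe and Pnpla2, with the smallest p, were at 0.12 and 0.13, and Lep, which encodes leptin, was lowest at -0.24. Of the 9, 3 were higher and 1 lower at an unadjusted p under 0.05, against 10.2% and 6.18% of all genes. Progenitor markers had a median of -0.26, with 8 of 9 negative, 1 positive at 0.27, and Icam1 and Col1a1 at -0.27 and -0.30. At an unadjusted p under 0.05, 2 of 9 were lower, or 22.2% against 6.18% of all genes. Endothelial markers had a median of -0.07, with 5 of 8 negative and 1 of 8 lower at that level, or 12.5%. Among them Cldn5 and Pecam1, with the smallest p, were at -0.33 and -0.17. Mammary and keratinocyte markers had medians of -0.03 and 0.02, with Csn1s1, Krt18, Krt1 and Krt10 at 0.11, -0.20, -0.08 and 0.08. VV replicate 1 had high levels of liver transcripts, with a mean of 3.58 over the liver list against at most 0.55 in the other mice, and FF replicate 1 of muscle transcripts, with a mean of 1.98 against at most 0.20. Ahsg and Alb differed by -1.72 and -0.98, and Myh2 and Myh1 by 0.66 and 0.57, with 0 genes of either list at an unadjusted p under 0.05. Without these 2 mice the median difference of the 43 genes was -0.27, and 29 were lower at an unadjusted p under 0.05, against a background of 6.63%.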

How the data were processed

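Fat of 10 mice was measured on 10 one-colour arrays. The deposited values are log2 intensities made by the authors with RMA, per the submitters' processing notes. The build, the chip description and the RMA version were not given in the sources used here. Of 35557 probe sets, 25689 had a value on all arrays; 20777 of these named 1 gene (232 named several and 4680 none) and 20699 matched RefSeq. A gene's probe set with the highest mean was kept, which left 19659 genes. The 2 genotypes were contrasted by limma 3.58.1 under R 4.3.3 (lmFit, eBayes, two-sided, no covariates), adjusted by Benjamini-Hochberg over all genes at 0.05; the number of arrays limits the precision. Intervals are limma's, at 95%. The procedure was tested on simulated data in which each gene had independent noise. Genes that vary together were not simulated.

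The members and all lists were chosen with earlier results of these data known. Values by mouse are given for the 3 genes of each role with the smallest p and for Mki67, Top2a, Cdk1 and Mcm2 whatever their p; of every other list the genes past the threshold and the 2 with the smallest p are named. Any further gene was named after its values were seen. List means are of values centred per gene. Alternatives were each mouse left out, FF replicate 1 with VV replicate 1 left out, quantile normalisation, a block for the replicate number, centring on array medians, filters at the 25th percentile and the median, the mean of probe sets, trend and robust settings, array weights and an adjusted p of 0.10. Figures were drawn with matplotlib 3.10.9.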

Additional observations from a re-analysis of the deposited data

Results flagged for a closer look

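In groups of 5 mice, a mouse whose gap to its nearest neighbour exceeded 0.71 of the group's range was singled out; 5 of 64 groups tested held one, and chance gives about 1 in 20. Rrm2 was 7.55 in VV replicate 2, with the next VV mouse at 6.98. That mouse also stood apart in the leukocyte mean, 0.60 against 0.18 for the next VV mouse, and in the macrophage mean, 0.47 against 0.12. The muscle mean was 1.98 in FF replicate 1, with the next FF mouse at 0.11, and 0.20 in VV replicate 1, with the next VV mouse at -0.33.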

How the results depend on the processing

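The median difference of the 43 genes stayed between -0.27 and -0.15 under the 19 alternatives to the fit, and between -0.25 and -0.15 with single mice left out. Of 418 values of the 23 genes given by mouse under those alternatives, all 418 kept their direction, and 6 passed the threshold, 5 of Tpx2 and 1 of Cenpa. The number of the 43 genes past the threshold, 0 in the reported fit, ran from 0 to 2 with single mice left out, the 2 being Tpx2 and Cenpa without VV replicate 1; it was 1, Tpx2, after centring on array medians, after the 25th percentile filter, with trend and robust settings and with array weights, and 3 at an adjusted p of 0.10 (Tpx2, Top2a and Cenpe). For the 129 other cell cycle genes it was 1 with array weights, Kif22, and 2 at an adjusted p of 0.10, Kif22 and Cdc25c. Over all genes the 148 calls became 7 to 379 with single mice left out (7 without VV replicate 2, 12 to 21 when the mouse was FF replicate 1, 2 or 5 or else VV replicate 4 or 5, 59 and 74 without FF replicate 4 and VV replicate 3, 163 without VV replicate 1 and 379 without FF replicate 3), 28 without FF replicate 1 and VV replicate 1, 95 after quantile normalisation, 338 after centring, 230 and 355 with the filters at the 25th percentile and the median, 383 with array weights and 704 at an adjusted p of 0.10; the cause was not tested. With the replicate number as a block 5 genes passed over all genes and 0 of the 43. Deviations of mice with equal numbers showed little correlation, from -0.264 to 0.102. Of 10 mice, 2 correlated best with their own number. No label states a pairing, and these correlations cannot exclude one. Filters kept 33 and 12 of the 43 genes, so 10 of them lie below the 25th percentile of intensity, where probe signal over background limits what can be seen.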
